A study of Mus musculus with 6 samples.

Results

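The genes described here encode the protein subunits of oxidative phosphorylation, the mitochondrial machinery that turns the electrons of food into ATP. Members were chosen by gene symbol: the mouse genes of the mitochondrial genome that encode a protein, and the nuclear genes whose symbols begin as those of the Nduf, Sdh, Uqcr, Cox and Atp5 families do, each with at least 100 UMIs (unique molecular identifiers, which count each captured RNA molecule once) over the tissue spots of the series. Of 98 symbols that matched, Cox8c had 2 UMIs and was left out, so the set held 97 of the 32288 genes kept, which are the mouse genes and 3 human genes. It contained 13 mitochondrially encoded members and 84 nuclear members. By complex, the mitochondrial members numbered 7 in complex I, 1 in complex III, 3 in complex IV and 2 in complex V, and the nuclear members 38 in complex I, 4 in complex II, 8 in complex III, 17 in complex IV and 17 in complex V. The symbol decided the complex, so that Ndufa4, now counted by many as part of complex IV, stands in complex I here, and a few matched genes encode isoforms or accessory proteins that are not standard subunits in brain.

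RNA was measured on 6 Visium sections, each a coronal cut through the right hemisphere of a female mouse in which human APOE3 (E3) or APOE4 (E4), homozygous, replaces the mouse gene. There was 1 section in each of 6 groups: E4 5xFAD and E3 5xFAD mice of 12 months, E4 aged and E3 aged mice of 24 months, and E4 young and E3 young mice of 3 months. All 6 groups carry human APOE under the mouse promoter. The 5xFAD mice also carry transgenes, mutant human APP among them, driven by the neuronal Thy1 promoter, and lay down amyloid. Sections of 5xFAD differ from the young ones in transgenes, in age and in the strain background of the cross, and the deposited names of the 5xFAD pair carry a prefix of their own. These differences cannot be told apart. A Visium spot covers several cells, and in such bulk spots fewer cells of a type and less RNA per cell cannot be told apart.

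Complexes I to IV of the inner mitochondrial membrane pass electrons from NADH and succinate to oxygen and, all but complex II, pump protons. Complex V, the ATP synthase, lets the protons back and makes ATP. Complexes I, III, IV and V are built from both genomes: a few hydrophobic core subunits come from mitochondrial DNA, which is transcribed as long polycistronic RNAs and cut into messengers inside the organelle, and the rest are transcribed in the nucleus, translated in the cytosol and imported. Complex II is wholly nuclear. Neurons hold most of the respiratory capacity of the brain, and fiber tracts, rich in oligodendrocytes, hold few neuronal cell bodies.

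Sequences help to read 2 limits of the results. Some mitochondrial genes overlap, and a read from the shared bases, or from a messenger that holds both genes, cannot be given to 1 of them with certainty. On GRCm38, mt-Atp8 and mt-Atp6 share 43 bases (chrMT:7927-7969) and lie on 1 bicistronic messenger, mt-Nd4l and mt-Nd4 share 7 bases (chrMT:10167-10173), mt-Atp6 and mt-Co3 share 1 base, and mt-Nd5 shares 14 bases (chrMT:13552-13565) with mt-Nd6, which is read from the opposite strand. The gene that stands apart most from the other mitochondrial members below is mt-Atp8, 204 bases on the plus strand (chrMT:7766-7969, RefSeq), printed 5′ to 3′ with the bases shared with mt-Atp6 in capitals.
mt-Atp8: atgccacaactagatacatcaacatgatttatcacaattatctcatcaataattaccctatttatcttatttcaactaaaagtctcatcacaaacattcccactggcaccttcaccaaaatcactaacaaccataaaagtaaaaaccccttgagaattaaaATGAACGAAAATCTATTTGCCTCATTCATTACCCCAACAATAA

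Nuclear members were read at their promoters, from 250 bases before to 50 after the RefSeq start on GRCm38.p6. Promoters were found for 67 of the 84 nuclear members, 72 in all. On either strand, GCATGCGC, the core of the site of NRF1, a transcription factor of respiratory genes, occurred in 10 of them, or 13.9%, against 2.71% of all 32851 promoters in the table. The YY1 letters AAGATGGC occurred in 9, or 12.5%, against 2.75%, the estrogen-related receptor letters AAGGTCA in 8, or 11.1%, against 4.72%, and the ETS letters CCGGAAGT in 5, or 6.94%, against 3.89%. A match is a description of the letters and not a binding site. Promoters of 3 complex IV members are shown because their RNAs differed between brain areas below: Cox6a1 (chr5:115348909-115349208, minus strand) and Cox8a (chr19:7217567-7217866, minus strand) encode the widely expressed isoforms, and Cox7a1 (chr7:30183921-30184220, plus strand) an isoform best known from muscle. Capitals mark NRF1 letters in Cox6a1, where matches on both strands overlap, and ETS letters read on the other strand in Cox8a, and Cox7a1 had no match.
Cox6a1: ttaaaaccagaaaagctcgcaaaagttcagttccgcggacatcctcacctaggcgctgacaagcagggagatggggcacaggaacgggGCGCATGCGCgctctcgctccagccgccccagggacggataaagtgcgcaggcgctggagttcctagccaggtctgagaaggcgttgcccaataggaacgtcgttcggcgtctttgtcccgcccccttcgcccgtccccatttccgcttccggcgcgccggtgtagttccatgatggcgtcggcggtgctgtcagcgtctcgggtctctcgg
Cox8a: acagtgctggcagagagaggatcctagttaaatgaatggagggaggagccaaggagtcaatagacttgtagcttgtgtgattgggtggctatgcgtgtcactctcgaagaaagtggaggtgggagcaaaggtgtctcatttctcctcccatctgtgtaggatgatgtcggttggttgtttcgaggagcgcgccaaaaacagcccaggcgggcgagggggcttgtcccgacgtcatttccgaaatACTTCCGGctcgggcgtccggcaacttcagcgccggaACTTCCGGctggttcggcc
Cox7a1: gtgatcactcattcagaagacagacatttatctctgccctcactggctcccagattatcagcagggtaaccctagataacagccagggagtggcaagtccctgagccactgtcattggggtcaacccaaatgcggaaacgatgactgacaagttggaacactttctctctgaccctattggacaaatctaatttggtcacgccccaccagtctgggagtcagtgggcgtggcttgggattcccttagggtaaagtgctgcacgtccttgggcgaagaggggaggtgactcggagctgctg

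The genes kept had 186693762 UMIs over 14524 tissue spots, with 1688 to 2773 spots and 20343701 to 37266232 UMIs in a section. A further 2455 spots of the tissue masks had no barcode in the count matrices, which covered 81.3% and 99.9% of the mask in E4 5xFAD and E3 5xFAD, 75.9% and 85.5% in E4 aged and E3 aged, and 83.5% and 86.0% in E4 young and E3 young. Of the sections, 1 section (E3 5xFAD) carries another software version in its header than the rest, and fiber tract spots were shallow in 4 sections (medians of 335.5 to 614 UMIs) and deeper in E4 young and E3 young (1286 and 2938.5 UMIs). Labels describe the cells as non-neuronal, but the neuronal genes Snap25 and Rbfox3 were clearly present in every section. Among the members, mt-Co3 had 4003063 UMIs, mt-Atp6 3856721 and mt-Co1 3834437, while mt-Nd6 had 7320. The nuclear members with the most UMIs in each complex were Ndufa4, Sdha, Uqcr11, Cox8a and Atp5b, with 231992, 62840, 128272, 307227 and 251559. In whole sections, mitochondrially encoded members made up 9.31% and 11.3% of UMIs in E4 5xFAD and E3 5xFAD, 13.6% and 12.7% in E4 aged and E3 aged, and 13.7% and 13.4% in E4 young and E3 young. Nuclear members made up 4.33% and 4.14%, 3.78% and 4.05%, and 4.19% and 4.04% in the same order.

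With 1 section per group, values of 2 sections have no test, and the exact intervals drawn or given cover counting error only. Tests between groups come from an additive fit over the 6 section sums of an area (edgeR's quasi-likelihood test, 2 residual degrees of freedom), in which a gene was called at a Benjamini-Hochberg adjusted p under 0.05. Areas are clusters of spots named by marker genes, made without the members. Levels are CPM, UMIs scaled to a total of 1000000 over all genes of that area and section. Because mitochondrial RNA is a large share of every library, a lower mitochondrial share raises the CPM of all other genes, so the ratio of mitochondrial to nuclear subunit UMIs, which does not depend on library size, was followed as well.

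Relative to young sections, the 5xFAD sections had less RNA of the mitochondrially encoded subunits per nuclear subunit RNA in each of 6 areas. In the cerebral cortex, the log2 ratio of mitochondrial to nuclear subunit UMIs was 0.87 in E4 5xFAD and 1.43 in E3 5xFAD, 1.67 in E4 aged and 1.57 in E3 aged, and 1.67 in E4 young and 1.80 in E3 young. Cortical spots of E4 aged came mostly from cluster 4 (156 spots, beside 22 of cluster 2 and 32 of cluster 6). The other sections had 169 to 293 spots of cluster 4, 268 to 366 of cluster 2 and 181 to 305 of cluster 6. Hippocampal log2 ratios were 1.203 and 1.195 in the 5xFAD sections, 1.80 and 1.53 in the aged ones and 1.76 and 1.44 in the young ones, E4 before E3 each time. Both 5xFAD sections lay below the other 4 sections in each area, with the closest values in the hypothalamus, where the higher 5xFAD section had 1.41 and the lowest other section 1.48.

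Over 5 areas (cortex, hippocampus, thalamus, hypothalamus and fiber tracts) and both genotypes, the 5xFAD section was below the young section of its genotype in 10 of 10 pairs, by a median of -0.42 (from -0.80 to -0.22) on the log2 scale. The pairs share sections between areas and are no independent replicates. The same 10 of 10 held within each complex that has subunits from both genomes, with medians of -0.46 in complex I, -0.43 in complex III, -0.39 in complex IV and -0.50 in complex V. For complex I in the cortex the log2 ratio was 0.48 and 1.33 in E4 5xFAD and E3 5xFAD, 1.35 and 1.299 in E4 aged and E3 aged, and 1.39 and 1.62 in E4 young and E3 young. There the E3 5xFAD section overlapped with the aged ones and only E4 5xFAD stood apart. For complex V in the thalamus the log2 ratio was 0.40 and 0.26 in E4 5xFAD and E3 5xFAD, 1.09 and 0.90 in the aged pair, and 0.91 and 0.75 in the young pair, with no overlap.

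**Figure D1:**
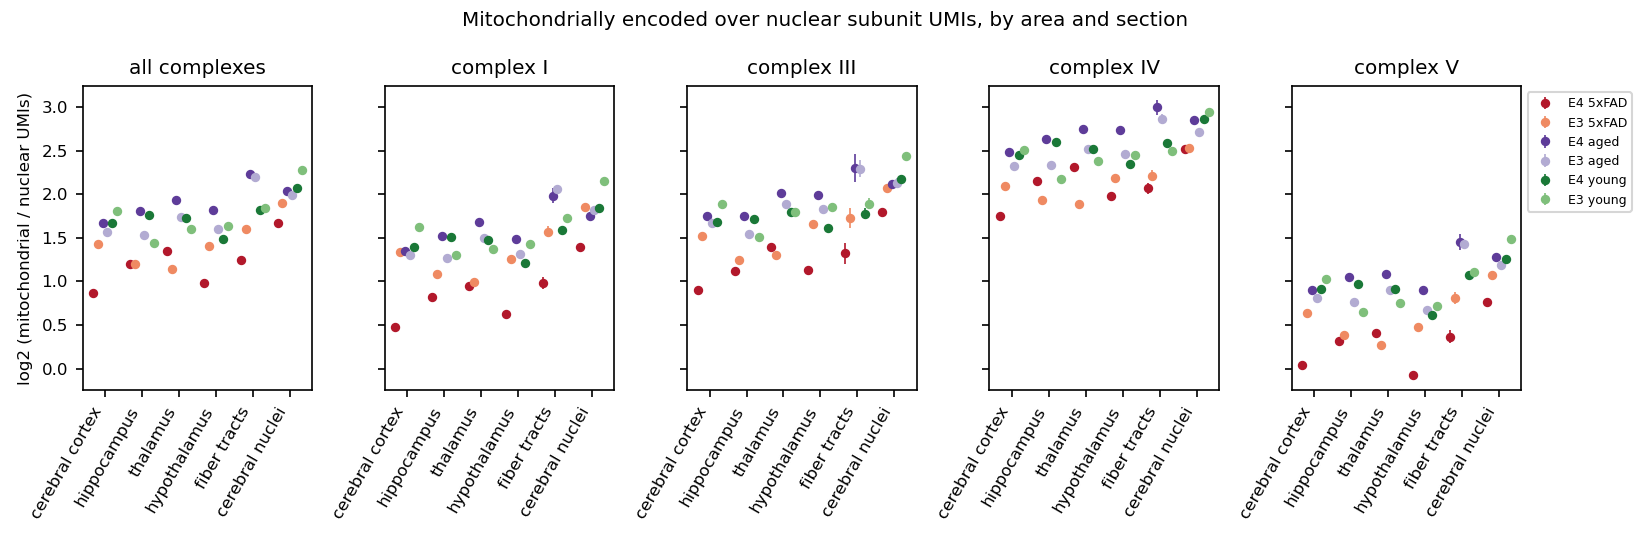
Log2 ratio of mitochondrially encoded to nuclear subunit UMIs (vertical axis) in 6 brain areas, for all complexes and for complexes I, III, IV and V in separate panels, with 1 point per section and bars for exact 95% counting intervals. Over all complexes both 5xFAD sections lie below the other 4 sections in each area, such as 0.87 and 1.43 against 1.57 to 1.80 in the cortex.

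The lower ratio came with a lower mitochondrial part. Mitochondrially encoded members made up 8.05% and 11.29% of cortical UMIs in E4 5xFAD and E3 5xFAD, 12.01% and 12.27% in E4 aged and E3 aged, and 13.50% and 13.99% in E4 young and E3 young. Nuclear members made up 4.41% and 4.18%, 3.78% and 4.13%, and 4.23% and 4.01% of the same UMIs. For the mitochondrial share, the 5xFAD sections were below the other 4 in each of 5 areas, and for the nuclear share the groups overlapped in the cortex.

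In the fit of 5xFAD against young, the number of mitochondrially encoded members called lower was highest in the hippocampus, where 11 of 13 fell (median of all 13, -0.44). There mt-Atp6, the proton channel subunit of the ATP synthase, had 15979 and 15812 CPM in E4 5xFAD and E3 5xFAD, 22749 and 20349 CPM in E4 aged and E3 aged, and 22636 and 20061 CPM in E4 young and E3 young. Its fitted log2 difference was -0.49 ± 0.06 (SE; adjusted p = 0.00023), and the 5xFAD sections lay below the other 4 without overlap. Also in the hippocampus, mt-Co2, a catalytic core subunit of complex IV that takes electrons from cytochrome c, had 12492 and 10410 CPM in E4 5xFAD and E3 5xFAD, 15672 and 13923 CPM in the aged pair and 15969 and 13600 CPM in the young pair (log2 difference -0.44, adjusted p = 0.0012). The sole mitochondrial subunit of complex III, mt-Cytb, fell by 0.44 (adjusted p = 0.0013), and of the complex I members mt-Nd3 fell by 0.56, mt-Nd2 by 0.54, mt-Nd1 by 0.48, mt-Nd5 by 0.45 and mt-Nd4 by 0.44. The remaining complex IV members mt-Co1 and mt-Co3 fell by 0.41 and 0.37. Groups did overlap for mt-Co1, with 18370 and 12968 CPM in E4 5xFAD and E3 5xFAD, 23733 and 20079 CPM in the aged pair, and 22477 and 16965 CPM in the young pair. The members not called were mt-Nd4l (log2 difference -0.39, adjusted p = 0.061) and mt-Nd6 (-0.29, adjusted p = 0.57).

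Of all 13162 genes tested in the hippocampus, 0.22% were called lower in 5xFAD and 1.3% in either direction. The same percentages lower were 0.0814 in the cortex, 0.157 in the thalamus, 0.377 in the hypothalamus and 0.345 in fiber tracts, and in either direction 1.07, 1.86, 0.626 and 1.35. Against these backgrounds, mitochondrial members called lower numbered 0 of 13 in the cortex (median -0.61), 1 in the thalamus (median -0.52), 2 in the hypothalamus (median -0.44) and 5 in fiber tracts (median -0.41), while the median over all genes tested was 0.00 or -0.01. At an unadjusted p under 0.05, 11 of 13 were lower in the cortex and 12 of 13 in each of the other 4 areas. The backgrounds above are for adjusted calls, and no share of all genes is given for unadjusted counts, here or below. In the hypothalamus mt-Co1 and mt-Co2 fell by 0.43 and 0.48, and in fiber tracts mt-Nd3, mt-Nd2, mt-Co2, mt-Co1 and mt-Atp6 fell by 0.48, 0.46, 0.42, 0.41 and 0.40. In the cortex the log2 differences of mt-Co2 and mt-Co1 were -0.69 and -0.61 with adjusted p = 0.11 for each.

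Single sections decided how many members were called, in fits with fewer residual degrees of freedom than the 2 of the full fit. No share of all genes called is given for such fits, here or below. Their counts therefore show how far calls depend on single sections, and nothing particular to the members is read from them. In the hippocampus 2 were called lower without E4 young, 4 without E3 young and 11 or 12 without any other section. In the cortex 12 were called without E4 aged, without E3 aged or without E3 5xFAD, and 0 without any of the remaining sections. Thalamic calls numbered 12 without E3 young, 2 without E4 young and 0 without E4 5xFAD. In the hypothalamus they numbered 12 without E4 aged, without E3 aged or without E3 5xFAD, 1 without either young section and 0 without E4 5xFAD. In fiber tracts 9 or 10 were called without E4 aged, without E3 aged or without E3 5xFAD, 1 without E3 young or without E4 5xFAD, and 0 without E4 young. Fiber tract spots came from 2 clusters (median UMIs of 444.5 in cluster 5 and 2654 in cluster 11) in unequal mixture, with 360 and 12 spots of clusters 5 and 11 in E4 5xFAD, 268 and 41 in E3 5xFAD, 238 and 28 in E4 aged, 215 and 107 in E3 aged, 141 and 157 in E4 young, and 36 and 214 in E3 young. With equal spots of each cluster, 0 mitochondrial members were called lower there in 5xFAD.

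**Figure D2:**
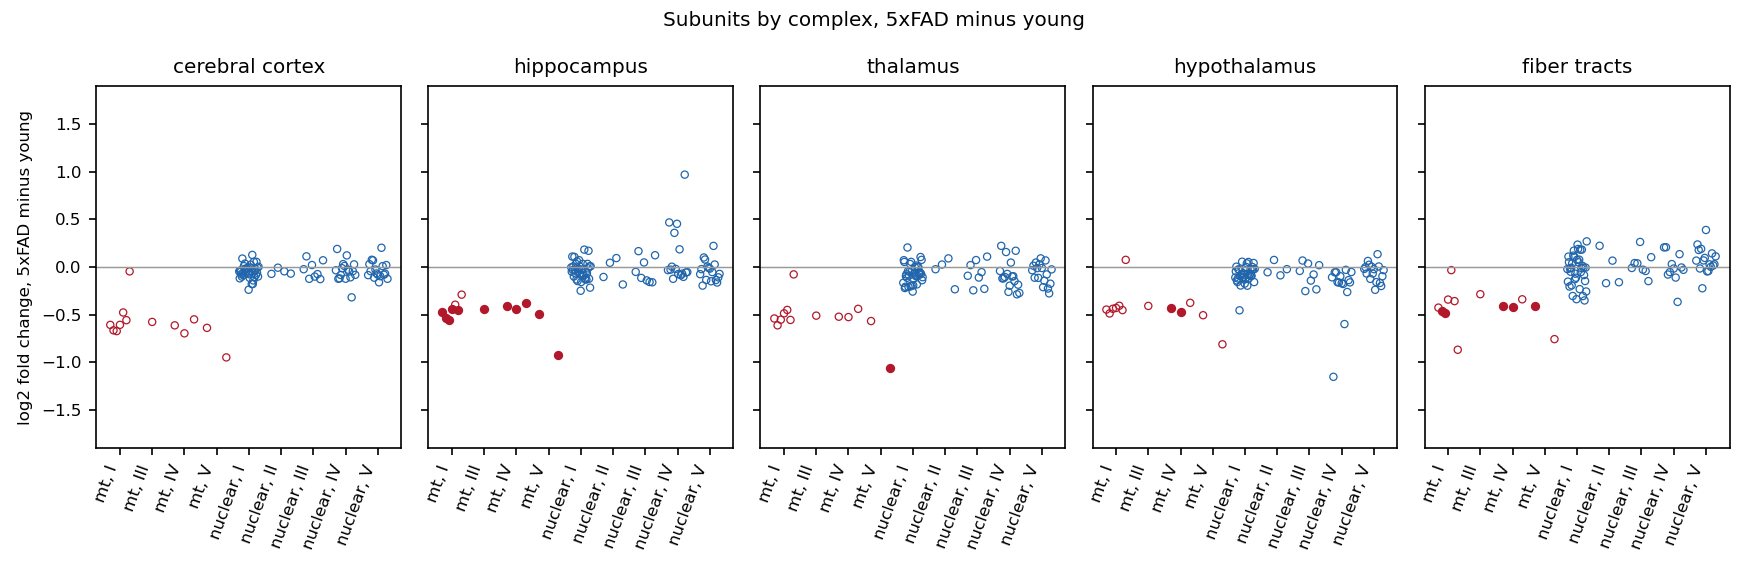
Log2 difference of 5xFAD minus young sections from the additive fit (vertical axis) for each member, by complex, in 5 areas, with mitochondrially encoded members in red, nuclear members in blue and filled points for adjusted p under 0.05. The mitochondrial members lie below 0 with few exceptions, with 11 of 13 called in the hippocampus, while the nuclear members lie about 0 with none called.

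The short gene mt-Atp8, whose product sits in the membrane part of the ATP synthase, stood apart from the other mitochondrial members. In the cortex it had 115 CPM in E4 5xFAD and 315 CPM in E3 5xFAD, 316 and 331 CPM in E4 aged and E3 aged, and 301 and 425 CPM in E4 young and E3 young. Hippocampal levels were 145 and 276 CPM in E4 5xFAD and E3 5xFAD, 414 and 312 CPM in the aged pair, and 344 and 388 CPM in the young pair. In the cortex only E4 5xFAD was apart, and in the hippocampus both 5xFAD sections were below the other 4. Fitted differences of mt-Atp8 were -0.93 ± 0.19 in the hippocampus (adjusted p = 0.019) and -1.06 ± 0.22 in the thalamus (adjusted p = 0.049), and -0.95 in the cortex (adjusted p = 0.29). The thalamic difference was -0.58 without E4 5xFAD and was not called. As a share of the UMIs of all mitochondrial members, mt-Atp8 was 0.132% to 0.158% in the 6 areas of E4 5xFAD and 0.223% to 0.386% in the areas of the other 5 sections, without overlap. The sequence printed above shows how much of the gene is shared with mt-Atp6, so a read there may count for either or for neither, and the part of this in the result was not tested.

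Composition differed in other members as well. The complex I core subunit mt-Nd2 made up 6.37% to 7.42% of mitochondrial member UMIs in the areas of E4 5xFAD, 8.94% to 9.90% in those of E3 5xFAD while the aged and young sections spanned 7.31% to 9.03%. Cortical mt-Nd4l, also of complex I, had 187 and 385 CPM in E4 5xFAD and E3 5xFAD, 298 and 318 CPM in the aged pair, and 332 and 385 CPM in the young pair, so that E3 5xFAD was level with E3 young. The light-strand gene mt-Nd6 was called in no area, and in the cortex it had 34.5 and 44.5 CPM in E4 5xFAD and E3 5xFAD, 43.2 and 30.6 CPM in E4 aged and E3 aged, and 36.0 and 40.3 CPM in E4 young and E3 young, with a fitted difference of -0.04. In the thalamus its difference was -0.08 and in the hypothalamus 0.08. In fiber tracts its difference of -0.87 ± 0.43 rested on 5 and 7 UMIs in the 5xFAD sections.

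No nuclear member was called in 5xFAD against young in any of the 5 areas by edgeR, of 84, 83, 84, 82 and 77 tested in cortex, hippocampus, thalamus, hypothalamus and fiber tracts. Without E3 young 18 were called over the 5 areas, without E3 5xFAD 5, and without E4 aged, E3 aged or E4 5xFAD 1 each. The median log2 difference of nuclear members was -0.05, -0.05, -0.08, -0.08 and -0.00 in the same areas, and those lower at an unadjusted p under 0.05 numbered 1, 1, 0, 5 and 0, with 1 higher, in fiber tracts. Atp5b, the catalytic beta subunit of the ATP synthase, had 1471 and 1358 CPM in the cortex of E4 5xFAD and E3 5xFAD, 1174 and 1195 CPM in E4 aged and E3 aged, and 1322 and 1272 CPM in E4 young and E3 young. Here both 5xFAD sections were above the other 4, as was so for 15 nuclear members in the cortex, 8 in the hippocampus, 10 in the thalamus, 3 in the hypothalamus and 14 in fiber tracts, beside 19.9%, 17.2%, 19.9%, 17.7% and 13.8% of all genes. For both 5xFAD sections below the other 4, nuclear members numbered 1, 2, 0, 1 and 0 and mitochondrial members 6, 11, 12, 10 and 11 in the same areas, beside 4.64%, 4.96%, 4.45%, 4.3% and 7.37% of all genes.

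Related nuclear genes were not called in 5xFAD either. Of the tricarboxylic acid cycle (18 genes), the electron carriers that feed the chain (11), assembly factors of the complexes (45 in the cortex), mitochondrial transcription and RNA handling (28), mitochondrial ribosomal proteins (78) and mitochondrial carriers, outer membrane and import proteins (15), 0 were called in each area. Tfam, which packages and helps to transcribe mitochondrial DNA, had log2 differences of 0.02 (cortex) and -0.10 (hippocampus), and Polrmt, the mitochondrial RNA polymerase, of 0.17 and 0.05, each uncalled. Ppargc1a, a coactivator of mitochondrial biogenesis, differed by -0.06 and 0.11, also uncalled.

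Other RNAs moved with the mitochondrial members. Malat1, a non-coding RNA kept in the nucleus, and Gm42418, which lies over ribosomal RNA sequence, fell in 5xFAD in all 5 areas, by 1.05 and 0.92 in the cortex and by 1.01 and 0.85 in the hippocampus, out of 8 tested genes that report on RNA quality. Neat1, another of these genes, went the other way and was called higher in the hippocampus. Of 83 cytosolic ribosomal protein genes, 4 fell in the hippocampus (Rps27 by 0.47 and Rps29 by 0.45 the most) and none in the other areas, with medians of -0.26 to -0.08. All 4 tested blood genes fell in the cortex and 2 of 4 in the hippocampus, with summed levels in the cortex of 12.4 and 15.9 CPM in E4 5xFAD and E3 5xFAD, 102 and 205 CPM in the aged pair and 135 and 107 CPM in the young pair. Microglial genes rose in 11 of 12 in the cortex and 10 of 12 in the hippocampus, with summed cortical levels of 2292 and 1688 CPM in E4 5xFAD and E3 5xFAD, 690 and 620 CPM in the aged pair, and 466 and 558 CPM in the young pair. Neuronal Thy1, whose promoter drives the transgenes, rose in all 5 areas. The part of these in the lower mitochondrial RNA was not tested.

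Against young, aged sections showed no mitochondrial member called in any area by edgeR. Medians of the mitochondrial members were -0.21 in the cortex, -0.00 in the hippocampus, 0.07 in the thalamus, 0.00 in the hypothalamus and 0.18 in fiber tracts, and those of the nuclear members were -0.07, -0.06, -0.05, -0.12 and -0.20. The calls among all genes were 0.0203%, 0.296%, 0.135%, 0.173% and 0.204% in the same order. At an unadjusted p under 0.05, mt-Co1 was higher by 0.17 in the hippocampus and by 0.29 in fiber tracts, and mt-Nd5 by 0.30 in fiber tracts. Over the 5 areas there were 6 mitochondrial calls without E4 aged, 2 without either 5xFAD section and 0 without any of the remaining sections. The log2 ratio of mitochondrial to nuclear UMIs was higher in the aged section in 7 of 10 pairs and lower in 3 (median 0.11, from -0.23 to 0.41), and the largest differences were in fiber tracts, where it was 2.23 and 2.199 in E4 aged and E3 aged and 1.82 and 1.85 in E4 young and E3 young. The clusters given above were mixed differently there too, with cluster 11 making up more of the young than of the aged spots.

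The single nuclear call in aging was Ndufb4, an accessory subunit of complex I, in fiber tracts, with 192 and 245 CPM in E4 aged and E3 aged (28 and 98 UMIs) and 405 and 371 CPM in E4 young and E3 young. The 5xFAD sections, at 404 and 445 CPM, were level with or above the young ones. Its log2 difference was -0.77 ± 0.17 (adjusted p = 0.0498) and was not called without E4 young (-0.62), without E4 aged (-0.66) or without E3 aged (-0.996). Over the 5 areas nuclear calls numbered 17 without E3 young, 10 without E3 aged, 3 without either 5xFAD section and 0 without E4 young or E4 aged. Blood genes rose in aging, 4 of 4 in the hippocampus, thalamus and hypothalamus, and their part was not tested. Aged and 5xFAD differences are both taken against the same young sections.

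For E4 against E3, 1 mitochondrial member was called: mt-Co1, the catalytic subunit of complex IV, in the hippocampus, where it was higher in E4 in each condition (18370 against 12968 CPM in 5xFAD, 23733 against 20079 CPM in aged and 22477 against 16965 CPM in young). Its log2 difference was 0.39 (adjusted p = 0.0066), with adjusted p = 0.16 without E4 young and 0.18 without E3 young. Hippocampal spots were deeper in E4 than in E3 in 5xFAD (median UMIs of 16406 and 5641) and young sections (19749 and 8601). In aged sections their depth was close (13466 and 13370). The part of depth in the mt-Co1 call was not tested. Calls over all genes were 0.0136% in the cortex, 0.106% in the hippocampus, 0.015% in the thalamus, 0.0528% in the hypothalamus and 0.0941% in fiber tracts. Medians of the mitochondrial members were -0.26, 0.08, 0.13, -0.12 and -0.10 and those of the nuclear members -0.02, -0.03, 0.02, 0.06 and 0.07 in these areas, and no nuclear member was called by edgeR. Over the 5 areas, mitochondrial calls numbered 17 without E4 aged, 16 without E3 aged, 6 without either 5xFAD section and 0 without either young section, and nuclear calls 9 without E3 5xFAD, 8 without E4 5xFAD, 1 without E3 young and 0 without the others.

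The log2 ratio was lower in E4 in 6 of 15 pairs and higher in 9, with a median of 0.03 (from -0.56 to 0.32). In the cortex the E4 minus E3 difference was -0.56 in 5xFAD, 0.10 in aged and -0.13 in young sections, and in the hippocampus it was 0.01 in 5xFAD, 0.27 in aged and 0.32 in young sections. The size of the genotype difference thus varied between conditions and areas, and with 1 section in each it was not tested. For mt-Atp8 the log2 differences of E4 against E3 were -0.71 in the cortex, -0.51 in the hypothalamus and -0.49 in fiber tracts, uncalled, and the low E4 5xFAD section described above is part of each.

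Between areas, few mitochondrially encoded members were called, while nuclear members differed in both directions. Each area was set against the cortex of the same section, with the section as a block. Of the 13 mitochondrial members, none was called in the hippocampus in either direction by edgeR, mt-Nd6 fell by 0.20 in the thalamus, mt-Nd6 and mt-Nd4l rose by 0.23 and 0.22 in the hypothalamus, and 5 rose in fiber tracts: mt-Nd4l by 0.61 ± 0.10 (adjusted p = 2e-06), mt-Atp8 by 0.47 ± 0.10, mt-Nd2 by 0.25, mt-Nd5 by 0.22 and mt-Nd4 by 0.20. The thalamic call of mt-Nd6 was lost without E3 young, E3 aged or E3 5xFAD, and its hypothalamic call without E4 5xFAD. In fiber tracts the calls of mt-Nd4 and mt-Nd5 were lost without E4 aged, E3 aged or E4 5xFAD, that of mt-Nd4 also without E3 5xFAD, and that of mt-Nd2 without E3 aged, while the hypothalamic call of mt-Nd4l was lost without E4 aged or E4 5xFAD. Over the 4 areas, 7 of the 13 were called nowhere. Nuclear members rose or fell in 3 and 17 cases in the hippocampus (median -0.05), 24 and 20 in the thalamus (-0.01), 30 and 9 in the hypothalamus (0.08), and 4 and 47 in fiber tracts (-0.17). Of all 14498 genes tested, 19.4% rose and 19.8% fell in the hippocampus, 28.0% and 27.2% in the thalamus, 27.5% and 26.9% in the hypothalamus, and 18.5% and 20.8% in fiber tracts. Without E3 aged, those falling numbered 30 in fiber tracts, 8 in the hippocampus and 13 in the thalamus. Falls in the hippocampus also numbered 9 without E3 5xFAD and 10 without E4 young, and rises in fiber tracts 1 without E3 young and 2 without E3 5xFAD. Over the areas, 4 nuclear members were called in no area, 24 were called in both directions depending on the area, and 1, Cox8a, was lower than the cortex in each of the 4 areas. The same tally was not made over all genes, so nothing particular to the members is read from it.

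**Figure D3:**
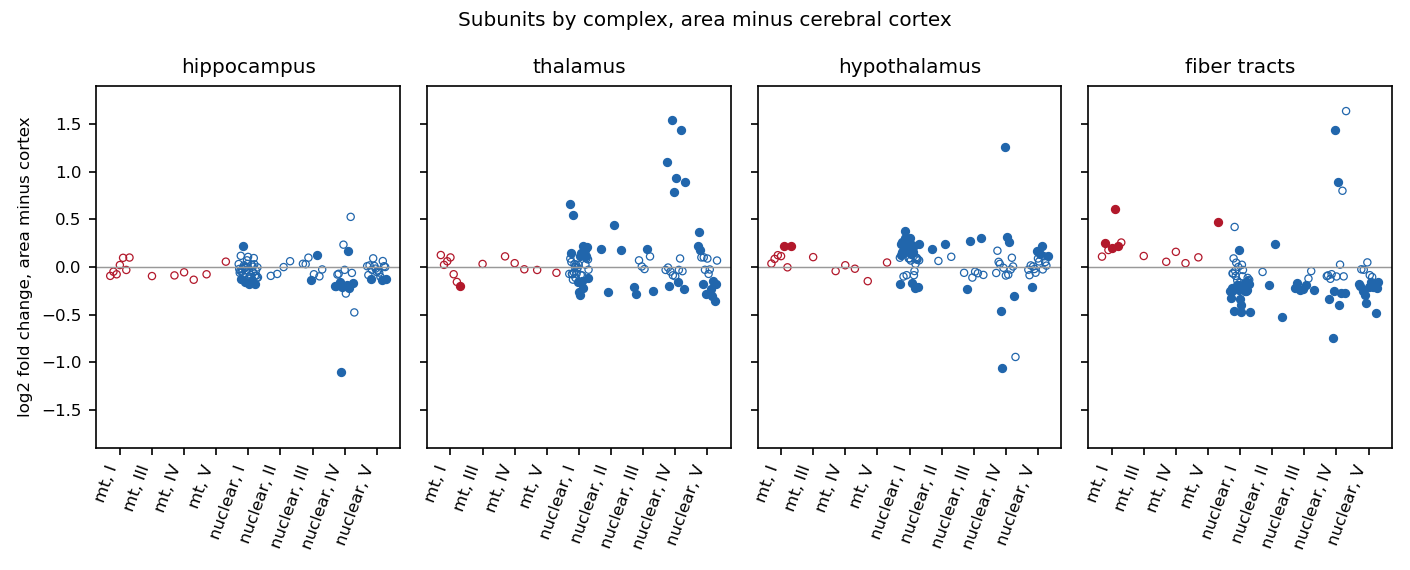
Log2 difference of each area minus the cerebral cortex from the blocked fit (vertical axis) for each member, by complex, in 4 areas, with mitochondrially encoded members in red, nuclear members in blue and filled points for adjusted p under 0.05. In fiber tracts 47 of the nuclear members are called below 0 and 5 mitochondrial members above it, and in the thalamus complex IV runs from Cox6a2 at 1.54 to Cox8a at -0.23.

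In the thalamus, members were called in both directions, and both counts lie near the shares over all genes given above, so nothing about the complexes is read from them. Of complex I 11 rose and 6 fell, of complex II 3 rose and 1 fell, of complex III 1 rose and 3 fell, of complex IV 6 rose and 3 fell, and of complex V 3 rose and 7 fell. Ndufa10, an accessory subunit of complex I, had 367 and 416 CPM in the thalamus of E4 5xFAD and E3 5xFAD, 368 and 398 CPM in E4 aged and E3 aged, and 322 and 382 CPM in E4 young and E3 young, against 232, 228, 240, 243, 240 and 229 CPM in the cortex of the same sections. It was higher in the thalamus in all 6 sections, by 0.66 ± 0.06 (adjusted p = 1.6e-12). Sdhc, a membrane anchor of succinate dehydrogenase, rose by 0.44 ± 0.06 while Sdhb, its iron-sulfur subunit, fell by 0.26. Of the ATP synthase, the catalytic F1 part's subunits Atp5b, Atp5a1 and Atp5c1 rose by 0.37, 0.23 and 0.18. Atp5d and Atp5e, of the F1 part too, were called higher in no area, and lower in 3 and 1 of the 4 areas. No split between the F1 and membrane parts is read from these members. Among the 7 that fell, Atp5md, Atp5k, Atp5g2 and Atp5j2, which belong to the membrane part, fell by 0.35, 0.31, 0.28 and 0.23. Atp5md had 951 and 1090 CPM in the thalamus of E4 5xFAD and E3 5xFAD, 921 and 905 CPM in the aged pair, and 1340 and 1002 CPM in the young pair, against 1362, 1304, 1267, 1256, 1372 and 1250 CPM in the cortex, and so was lower in each section, least of all in E4 young.

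The members that rose in the thalamus tended to have longer annotated transcripts, by the median over all transcripts listed for a gene. That median is not the length of the RNA present, and was 521 bases for Sdha and 2675.5 for Atp5g1. Across the 84 nuclear members Spearman's rho between this annotated median length and the thalamic difference was 0.30, against 0.02 across all genes. It is a description, since genes of a section share its RNA and library. Members longer than 601.25 bases had a median of 0.085 and shorter ones -0.071. The same split over all genes gave 0.012 and -0.061, so the shorter members lay near the shorter genes at large. In the hippocampus, hypothalamus and fiber tracts rho across the nuclear members was 0.09, -0.02 and -0.05. The TCA cycle rose in 13 of 18 genes in the thalamus with 1 lower (median 0.21), led by Pcx and Suclg2 (0.62 and 0.59), assembly factors in 12 of 45 with 11 lower (Atpaf1 by 0.96 and Ttc19 by 0.66), and Esrra and Ppargc1a, regulators of respiratory genes, rose by 0.78 and 0.44.

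Complex IV isoforms gave the largest area differences of the set. Several subunits of cytochrome c oxidase exist as a widely expressed isoform and one or more restricted isoforms, as with Cox6a1 and Cox6a2, Cox7a2 and Cox7a1, Cox4i1 and Cox4i2, and Cox8a and Cox8b. Cox6a2, the heart and skeletal muscle isoform of subunit 6a (chr7:128205435-128206387), had 113 and 160 CPM in the thalamus of E4 5xFAD and E3 5xFAD, 134 and 128 CPM in E4 aged and E3 aged, and 89.4 and 142 CPM in E4 young and E3 young. Cortical levels of Cox6a2 were 39.3, 53.1, 37.4, 41.5, 44.5 and 41.8 CPM in the same sections, and hippocampal levels 23.7, 26.3, 21.1, 16.0, 20.7 and 15.1 CPM. Thalamic, cortical and hippocampal values did not overlap. Relative to cortex, Cox6a2 rose by 1.54 ± 0.08 in the thalamus (adjusted p = 2.6e-18) and fell by 1.10 ± 0.10 in the hippocampus, by 1.06 ± 0.10 in the hypothalamus and by 0.74 ± 0.21 in fiber tracts. Its partner Cox6a1 went another way: it had 670 and 779 CPM in the hypothalamus of E4 5xFAD and E3 5xFAD, 680 and 775 CPM in the aged pair and 694 and 840 CPM in the young pair, against 937, 1080.5, 906, 1054, 936 and 1066 CPM in the cortex. Cox6a1 fell by 0.46 ± 0.05 in the hypothalamus (adjusted p = 2e-09) and differed by -0.05 in the thalamus, where it was not called (adjusted p = 0.46).

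Cox7a1, the muscle-type isoform of subunit 7a, had 14.1 and 20.3 CPM in the thalamus of E4 5xFAD and E3 5xFAD, 14.1 and 22.0 CPM in E4 aged and E3 aged, and 10.3 and 21.6 CPM in E4 young and E3 young, against 9.33, 9.20, 6.79, 11.1, 7.87 and 8.09 CPM in the cortex. It was higher in the thalamus in all 6 sections, by 0.93 ± 0.12 (adjusted p = 3.3e-08), and was also called higher in the hypothalamus (0.31) and in fiber tracts (0.89), where it had 2 to 16 UMIs in a section. The fiber tract call was lost without E3 young (0.78) or E3 5xFAD (0.69), and the hypothalamic call without E4 young (0.24), E3 young (0.19) or E4 aged (0.26). Its partner Cox7a2 fell by 0.15 ± 0.05 in the thalamus and by 0.40 ± 0.06 in fiber tracts.

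Cox4i2, an isoform of subunit 4 known from lung and from its response to low oxygen, had 4.23 and 5.99 CPM in the thalamus of E4 5xFAD and E3 5xFAD, 6.51 and 7.29 CPM in the aged pair and 4.45 and 3.92 CPM in the young pair. In the cortex Cox4i2 had 2.21, 2.90, 3.40, 2.40, 2.34 and 1.84 CPM, below all thalamic values, and the fitted difference was 1.10 ± 0.22. Cox7b2, a paralog of Cox7b, rose by 1.44 ± 0.25 in the thalamus on 12 to 31 UMIs in a section. Cox8b, the muscle isoform of subunit 8, was called higher in the thalamus (0.89, adjusted p = 0.02) on 4 to 48 UMIs, with 8.93 CPM in E4 aged and 0.809 to 2.75 CPM in the rest, and without E4 aged the difference was 0.38 and not called. All 10 endothelial and mural cell markers rose in the thalamus too, with a median of 0.45, and their part in these differences was not tested.

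**Figure D4:**
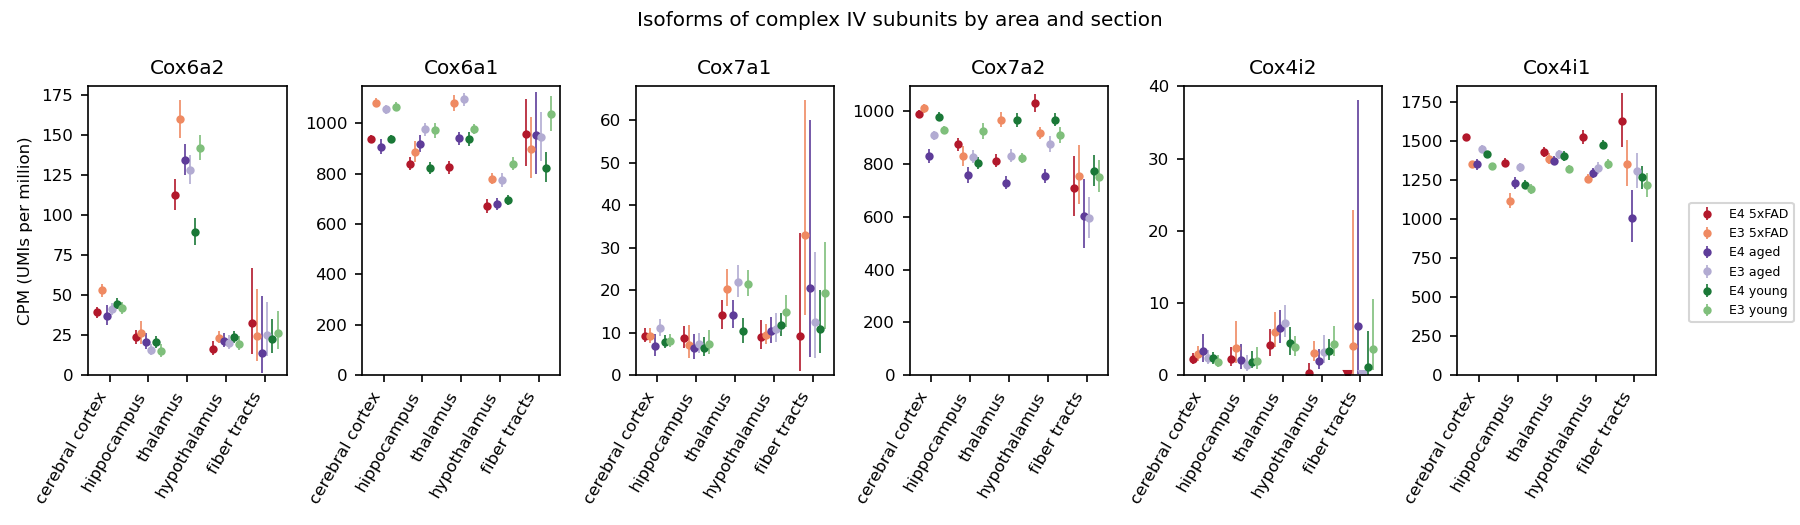
Levels in CPM (vertical axis, linear scale) of Cox6a2 and Cox6a1, Cox7a1 and Cox7a2, and Cox4i2 and Cox4i1 in 5 areas, with 1 point per section, bars for exact 95% Poisson intervals and triangles for 0 UMIs. Cox6a2 lies between 89.4 and 160 CPM in the thalamus and between 37.4 and 53.1 CPM in the cortex, while Cox6a1 is lowest in the hypothalamus.

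The hypothalamus showed the most nuclear members above cortex. Of complex I 19 rose and 4 fell, of complex II 2 rose, of complex III 2 rose and 1 fell, of complex IV 3 rose and 3 fell, and of complex V 4 rose and 1 fell. Ndufa6, an accessory subunit of complex I, had 588 and 464 CPM in E4 5xFAD and E3 5xFAD, 482 and 518 CPM in E4 aged and E3 aged and 611 and 524 CPM in E4 young and E3 young, against 451, 391, 362, 397, 442 and 366 CPM in the cortex. It was higher in the hypothalamus in all 6 sections (0.37 ± 0.06, adjusted p = 5.9e-06), as was Uqcrh, the hinge protein of complex III (0.31 ± 0.05). Cox6b2, known from testis, had 8.13 and 9.60 CPM in the hypothalamus of E4 5xFAD and E3 5xFAD, 7.34 and 9.55 CPM in the aged pair and 11.5 and 7.41 CPM in the young pair, against 3.70, 4.52, 4.12, 2.14, 3.19 and 4.48 CPM in the cortex, with no overlap (1.26 ± 0.19, adjusted p = 4.6e-07). The fall of Cox8a, the common isoform of subunit 8 with the ETS letters printed above, was 0.31 in the hypothalamus, where it had 1509 and 1561 CPM in E4 5xFAD and E3 5xFAD, 1227 and 1432 CPM in the aged pair and 1499 and 1510 CPM in the young pair, against 1826, 2000.5, 1444, 1843, 1735 and 1771 CPM in the cortex. Mitochondrial ribosomal protein genes rose in 26 of 78 there and fell in 6, and cytosolic ribosomal protein genes rose in 79 of 83 (median 0.52).

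Fiber tracts showed the most nuclear members below cortex, although a few members rose. Of complex I 21 fell and 1 rose, of complex II 2 fell and 1 rose, of complex III 6 fell, of complex IV 6 fell and 2 rose, and of complex V 12 fell. Atp5md, a small membrane subunit of the ATP synthase, fell by 0.48 ± 0.07 (adjusted p = 1.4e-06). The complex I subunits Ndufv3 and Ndufb6 each fell by 0.47, and the anchor subunit Sdhd of complex II fell by 0.52 ± 0.12, on 7 to 59 UMIs in a section. Ndufa4 fell by 0.46 ± 0.07. The risers were Cox6b2 (1.44, on 1 to 8 UMIs), Cox7a1, Sdhc (0.24) and Ndufb11 (0.18). The Ndufb11 call was lost without E4 young, E3 young or E3 5xFAD (0.18, 0.15 and 0.15), and the Sdhc call without E3 young or E4 5xFAD (0.16 and 0.20). Of the TCA cycle 10 of 18 fell and 2 rose, Idh2 by 1.03 and Suclg2 by 0.66. Neuronal markers fell in 10 of 14 and rose in 1, and all 8 oligodendrocyte markers rose, some of which named the area. Their part in the nuclear subunit differences was not tested.

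Among the 4 areas, the hippocampus had the fewest nuclear calls. Of complex I 6 fell and 1 rose, of complex III 1 fell and 1 rose, of complex IV 7 fell and 1 rose, of complex V 3 fell, and complex II had no call by edgeR in either direction. Besides Cox6a2, the largest falls were Cox7b (0.22), Cox6b1 (0.21), Cox4i1 (0.20) and Cox7a2 (0.19), all of complex IV. The risers were Ndufa5 of complex I (0.22), Cox7a2l, which joins complexes III and IV (0.17), and Uqcrfs1, the Rieske protein of complex III (0.13). The Uqcrfs1 call was lost without E4 young, E3 young, E4 aged or E3 5xFAD (0.10 to 0.13).

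Taking both sides of the ratio, fiber tracts were above cortex in 6 of 6 sections, by 0.32 ± 0.24 on the log2 scale (SD, n = 6), with differences from 0.04 to 0.63. The cerebral nuclei were above cortex in 6 of 6 sections too, by 0.49 ± 0.16. Thalamus differed by 0.08 ± 0.29 (higher in 4 of 6), hippocampus by -0.01 ± 0.25 and hypothalamus by -0.02 ± 0.14, each higher in 3 of 6, all within the spread between sections. By complex, the hypothalamic ratio of complex V was below cortex in 5 of 6 sections (-0.17 ± 0.12), while those of complexes III and IV differed by 0.11 and 0.09. These differences stand beside the nuclear falls in fiber tracts and the rises in the hypothalamus given above.

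Within the hippocampus the mitochondrial share varied between clusters. A cluster led by Homer3 and Neurod6 had a median log2 ratio over sections of 0.96 (0.68 to 1.34) with mitochondrial members at 8.55% of UMIs, the cluster led by the dentate gyrus genes C1ql2 and Prox1 had 1.36 and 10.3%, and the cluster led by the CA1 genes Spink8 and Fibcd1 had 1.87 (1.47 to 2.46) and 14.7%. Spots of the hippocampus had quartiles of mitochondrial share of 7.43%, 11.6% and 14.8% in E4 5xFAD, 7.21%, 12.4% and 15.9% in E3 5xFAD, 9.27%, 18.8% and 23.9% in E4 aged, 8.67%, 18.3% and 23.0% in E3 aged, 10.5%, 16.9% and 19.7% in E4 young, and 10.1%, 16.7% and 22.0% in E3 young. The lower quartiles, medians and upper quartiles of the 5xFAD sections were all below those of the other 4. With equal spots of each cluster taken from every section, 10 of 13 mitochondrial members were called lower in the hippocampus of 5xFAD. Over all clusters the median log2 ratio reached 2.17 in a cluster named meningeal and 2.01 in the cerebral nuclei, and was 1.12 in the choroid plexus cluster led by Ttr. The cluster named meningeal (784 spots) had a mean marker z score of 1.92 for meninges and 1.04 for cortex, so it may hold cortex as well. Its counterpart held 339 spots without section centring and 399 with members allowed in the clustering. The 3 cortical clusters had 1.56, 1.58 and 1.68.

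**Figure D5:**
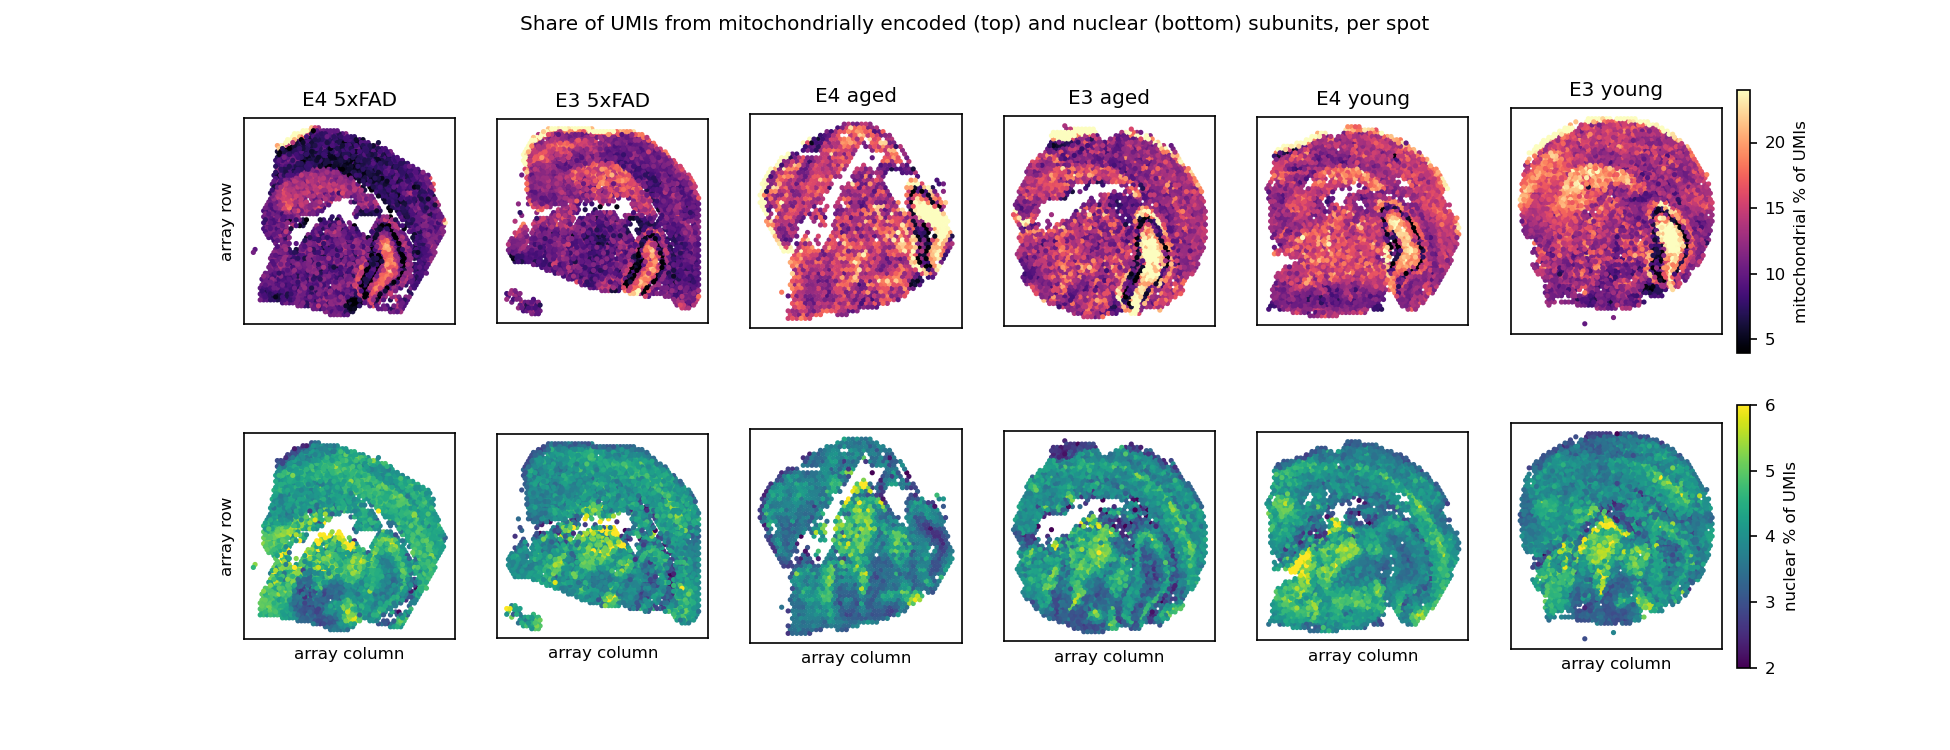
Maps of the 6 sections with each spot coloured by the percent of its UMIs from mitochondrially encoded members (top row, colour from 4% to 24%) and from nuclear members (bottom row, 2% to 6%), with axes in array positions. In the hippocampus the median spot has 11.6% and 12.4% mitochondrial UMIs in E4 5xFAD and E3 5xFAD, while aged and young sections range from 16.7% to 18.8%.

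Across the hippocampal spots of a section the mitochondrial and nuclear shares ran in opposite directions, with Spearman's rho from -0.51 to -0.80 over the 6 sections. The mitochondrial share was also lower where a spot held more UMIs, with rho from -0.53 to -0.76. These are descriptions, since spots of a section share 1 library and both shares have the same total below them, and the part of spot depth in the hippocampal differences was not tested.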

How the data were processed

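Spatial RNA was counted on 6 Visium sections of female mice, 1 per group. The authors aligned reads to mm10 with STAR 2.5.1b inside Space Ranger 1.3.0 per the study's methods, while the matrix headers give 1.2.2, or 2.0.0 for E3 5xFAD. The deposited matrices hold counts of UMIs for each gene in each spot (the labels also name GRCh38, and the matrices list both genomes), with no normalization. Mouse genes and 3 human genes were kept. Spots in the tissue mask with a barcode were used, with no depth filter and no doublet call.

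Spots were clustered without members or other mitochondrial genes (counts per 10000, 20 components, 20 neighbours, resolution 0.8, best of 10 starts, UMI number regressed out, genes centred within sections) into 18 clusters, named by markers. UMIs were summed per area and section and fitted in edgeR 4.0.16 (R 4.3.3; TMM, filterByExpr), for groups as genotype plus condition within an area, and for areas with section as a block. Nothing says that sections of a group were repeated, so p-values measure spread about an additive model. Levels have exact 95% Poisson intervals. The fits were also run on simulated data, drawn gene by gene with a shared spread. Genes that move together were not simulated, so that run says nothing about calls of such genes.

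Members and lists were chosen with earlier results of these data known. Named were all 13 mitochondrial members, the 5 nuclear members with the largest called difference in each direction and comparison, the member of each complex with the most UMIs, and the 2 leading genes of other lists. Others, such as Ndufa10, Cox7a2, Sdhb, Atp5a1, Tfam, Polrmt and the partners of isoforms, were chosen after their values were seen. Alternatives were DESeq2 1.42.0, library size without mitochondrial genes, no filter, spots of at least 2000 UMIs, no section centring, clustering with members allowed and mitochondrial share regressed out beside UMI number, equal spots of each cluster, means over spots, ribosomal protein genes in place of nuclear members, and leaving out each section.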

Additional observations from a re-analysis of the deposited data

Results flagged for a closer look

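The E4 minus E3 difference of the log2 mitochondrial to nuclear ratio had opposite signs between conditions in 3 of the 5 areas used in the fits and in the cerebral nuclei, and these differences between conditions were not tested, since each rests on single sections. In the cortex it was -0.5638 in 5xFAD, 0.096 in aged and -0.129 in young sections. In the hypothalamus it was -0.4309 in 5xFAD, 0.2164 in aged and -0.1494 in young sections, and in fiber tracts -0.3566, 0.0346 and -0.0274. In the cerebral nuclei it was -0.232, 0.0393 and -0.212 in the same order. The aged minus young difference in the hypothalamus was 0.3311 in E4 and -0.0346 in E3, also untested.

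Barcodes outside the tissue mask, which no comparison used, held mitochondrially encoded members too. They made up 8.6489% of UMIs over 672 barcodes in E4 5xFAD and 12.1805% over 6 barcodes in E3 5xFAD, 12.3993% and 11.579% over 589 and 432 barcodes in E4 aged and E3 aged, and 9.5219% and 12.5305% over 519 and 518 barcodes in E4 young and E3 young.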

How the results depend on the processing

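No paired analysis was possible because each group has 1 section, so replicate numbers pair no sections between groups. Areas were compared within sections, with the section as a block. The count of 10 of 10 pairs with a lower ratio in 5xFAD than young kept its value under all 7 alternatives, including cytosolic ribosomal protein genes in place of the nuclear members. In the fits of groups, leaving out 1 section leaves its group empty and its condition with 1 section. Spread is then estimated on fewer residual degrees of freedom than the 2 of the full fit. No share of all genes called is given for these fits. Mitochondrial members called lower in 5xFAD numbered, in the cortex, 8 with DESeq2, 11 with no filter on low counts and 7 with equal spots of each cluster, against 0, in the thalamus 6 with DESeq2, 11 with no filter and 0 without centring, against 1, in the hypothalamus 5 with DESeq2 and 12 with no filter, against 2, and in fiber tracts 0 with DESeq2, with spots of at least 2000 UMIs or with equal spots, and 10 with no filter or with members allowed in the clustering, against 5. With 1 section left out they ranged from 0 to 12 in the cortex, thalamus and hypothalamus, 2 to 12 in the hippocampus and 0 to 10 in fiber tracts. Nuclear calls in 5xFAD were 1 with members allowed in the clustering and 0 to 18 with 1 section left out. For E4 against E3, mitochondrial calls were 0 with DESeq2, 6 with no filter, 2 with equal spots and 0 to 17 with 1 section left out, and nuclear calls 1 with no filter and 0 to 9. In aging, mitochondrial calls ranged from 0 to 6 with 1 section left out, and the 1 nuclear call became 0 with DESeq2, library size without mitochondrial genes, spots of at least 2000 UMIs, no centring, members allowed in the clustering and equal spots, 2 with no filter, and 0 to 17 with 1 section left out.

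Between areas, mitochondrial calls in fiber tracts were 9 with DESeq2, 3 with deeper spots, 2 without centring, 3 with members allowed in the clustering and 2 to 7 with 1 section left out, against 5. In the hippocampus they were 1 with no filter and 0 to 1, in the hypothalamus 1 without centring or with members allowed in the clustering and 1 to 2, and in the thalamus 0 with DESeq2, 2 with library size without mitochondrial genes, without centring or with members allowed in the clustering, 4 with no filter and 0 to 2. Nuclear members higher in fiber tracts were 2 without centring and 1 to 5 with 1 section left out, those lower were 28 with DESeq2 and 30 to 46, those lower in the hippocampus 10 with deeper spots and 8 to 17, and those lower in the thalamus 13 to 22. Equal spots were not run for areas, and complex V has no ratio without the overlapping genes, since both its mitochondrial members overlap. The hippocampal ratio relative to cortex was 0.366 as a mean over spots, with 0.29 for complex III and 0.34 for complex V, so its sign depends on the weighting of spots. Aged sections were below young ones in 1 pair in place of 3 with equal spots.

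Signs turned for mt-Nd4l in fiber tracts of 5xFAD (0.071 with deeper spots, 0.036 with equal spots, and -0.47 to 0.28 with 1 section left out), for mt-Nd6 in the cortex (0.063 with equal spots, and -0.34 to 0.21 with 1 section left out), in the hypothalamus (-0.066 to 0.22 with 1 section left out) and in the thalamus (-0.33 to 0.17 with 1 section left out). Of the E4 minus E3 ratios, signs turned for young sections in the hippocampus (-0.022, mean over spots), the thalamus (-0.16, ribosomal genes) and fiber tracts (0.052 as a mean over spots, 0.033 without centring, 0.013 with members allowed in the clustering), for aged sections in the cortex (-0.12, ribosomal genes) and fiber tracts (-0.052 as a mean over spots, -0.0076 without centring, -0.026 with equal spots, -0.067 with ribosomal genes), and for 5xFAD sections in the hippocampus (-0.27 as a mean over spots, -0.038 with equal spots) and fiber tracts (0.075, deeper spots). Aged minus young ratios turned in the cortex of E4 (0.17 as a mean over spots, 0.11 with equal spots) and the hypothalamus of E3 (0.023, equal spots). The causes were not tested. Named members kept their direction and side of the threshold in 1108 settings, gained a call in 167, lost it in 125 and turned sign in 9. Fiber tract values rest on few UMIs, which limits low members there.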
